A study of Mus musculus with 12 samples.

Results

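Il3ra, Csf2rb and Csf2 encode the interleukin-3 receptor alpha chain, the beta chain shared by the receptors for interleukin-3, interleukin-5 and GM-CSF, and the cytokine GM-CSF itself. These 3 genes were taken by name from 909 genes that carried a symbol on a focused array of 1246 probe sets, each with its brightest probe set. Each had 1 probe set only. The set was selected on the measured Il3ra difference between tumour lines, with Csf2rb and Csf2 added as its partners, so line differences of the 3 genes are given as a description, without a test. Comparisons of hosts, which played no part in that choice, were tested.

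An alpha chain binds its own cytokine weakly, and the beta chain joins it to form a high-affinity receptor that signals through the kinase JAK2 and STAT5. In mice a second beta chain, encoded by the neighbouring gene Csf2rb2, pairs with Il3ra for interleukin-3 alone. GM-CSF drives growth and activation of macrophages, granulocytes and dendritic cells, and interleukin-3 acts on mast cells, basophils and early blood progenitors.

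Tumours grown in mice from melanoma lines were profiled on 12 arrays, with 3 arrays in each of 4 groups. The labels call the line Tm1N3 galectin-3 expressing and the line Tm1G3 galectin-3 silenced, and each was injected into wild-type mice or into Gal3 -/- mice, which lack galectin-3. The design text speaks of a line with silenced galectin-3 that was given a galectin-3 coding plasmid. Age, strain, tumour stage and whether a line was a single clone are not given in the sources used here. Which line carries that plasmid is not stated, so the labels could be the wrong way round, which would turn the galectin-3 reading of every line difference. All line differences are therefore given as Tm1N3 minus Tm1G3. With 1 line of each kind, galectin-3 status and any other difference between the lines cannot be told apart. Whole tumours hold tumour and host cells, so fewer cells of a type and less RNA per cell cannot be told apart either. Each sample title carries a number of its own, but no label says that it marks an animal or that replicates are separate animals, so a p-value here reflects the spread among arrays, part of which may be technical.

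Values are log2 levels after RMA normalization, and a difference of 1 is a doubling. Lgals3, the gene of galectin-3, ran from 9.35 to 10.55 in the 6 Tm1N3 arrays and from 8.98 to 9.99 in the 6 Tm1G3 arrays, so the lines overlapped and these levels do not settle which line is which (difference 0.46 ± 0.23, moderated SE; limma, adjusted p = 0.376). Between hosts it differed by -0.21 ± 0.23 (limma, adjusted p = 0.852). Where its probes lie relative to the deleted or silenced part is not given, so these levels do not check the labels. Over all probe sets, arrays correlated with r between 0.976 and 0.998.

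Promoter windows of Il3ra, Csf2ra and Csf2rb2 are shown because these chains differ below in how they vary between arrays. Each runs from 250 bases before to 50 bases after a RefSeq gene start in build GRCm38.p6. Of the 8 genes of the family 7 matched the sequence table, and Csf2rb did not. Capitals mark GAGGAA, a core that the myeloid factor PU.1 can bind, on either strand. They also mark CATGTG, a form of the E-box that the melanocyte factor MITF can bind.
Il3ra, chr14:14346245-14346544, plus strand: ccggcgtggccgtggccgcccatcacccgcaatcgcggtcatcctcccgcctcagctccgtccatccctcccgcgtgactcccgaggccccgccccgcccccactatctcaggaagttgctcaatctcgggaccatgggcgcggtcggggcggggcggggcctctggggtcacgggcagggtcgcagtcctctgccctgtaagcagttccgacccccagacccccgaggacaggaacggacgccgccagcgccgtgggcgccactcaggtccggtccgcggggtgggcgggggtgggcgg
Csf2ra, chr19:61228369-61228668, minus strand: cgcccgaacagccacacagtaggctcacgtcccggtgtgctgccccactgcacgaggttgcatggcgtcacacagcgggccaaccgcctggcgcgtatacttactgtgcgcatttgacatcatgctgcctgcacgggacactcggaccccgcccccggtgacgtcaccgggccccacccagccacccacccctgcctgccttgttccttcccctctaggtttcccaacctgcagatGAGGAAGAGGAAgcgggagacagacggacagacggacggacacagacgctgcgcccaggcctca
Csf2rb2, chr15:78305672-78305971, minus strand: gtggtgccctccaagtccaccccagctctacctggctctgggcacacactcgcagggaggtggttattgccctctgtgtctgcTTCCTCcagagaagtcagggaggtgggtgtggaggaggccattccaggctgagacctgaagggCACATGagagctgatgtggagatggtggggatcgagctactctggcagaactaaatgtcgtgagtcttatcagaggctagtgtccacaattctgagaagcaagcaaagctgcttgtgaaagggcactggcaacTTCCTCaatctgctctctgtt
The Il3ra window held neither motif, and 74.3% of its bases were G or C. A GATA factor core, AGATAA, was searched on either strand and did not occur in these 3 windows. The palindromic E-box that MITF and other factors can bind, CACGTG, did not occur in them either. Among the 4 family windows that are not printed, the GATA core occurred in those of Csf2, Il3 and Il5ra, and the PU.1 core in those of Il3, Il5 and Il5ra. The Csf2ra window held GAGGAA at 2 adjoining places on its own strand, in a window with 65.3% G and C. The Csf2rb2 window held 2 copies of the PU.1 core and 1 of the MITF E-box, all on the strand opposite to that printed. Of 32851 promoter windows of this length 28.3% held the PU.1 core, 14.2% the MITF E-box, 11.2% the GATA core and 7.2% the palindromic E-box on either strand, so these matches are a description of letters only.

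Il3ra was higher in every Tm1N3 tumour than in any Tm1G3 tumour, in both hosts. In Tm1N3 tumours of wild-type hosts its log2 levels were 7.72, 7.32 and 7.40 in replicates 1 to 3, and in those of knockout hosts 7.06, 7.54 and 7.07. In Tm1G3 tumours of wild-type hosts they were 6.71, 6.29 and 6.46, and in those of knockout hosts 6.42, 6.36 and 6.20. The lowest Tm1N3 array lay 0.35 above the highest Tm1G3 array, a separation that 3.29% of the 1246 probe sets showed between these lines. From this separation nothing further is read, since Il3ra was chosen for it.

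Group means of Il3ra were 7.48 ± 0.21 in Tm1N3 tumours of wild-type hosts, 7.22 ± 0.28 in Tm1N3 tumours of knockout hosts, 6.48 ± 0.21 in Tm1G3 tumours of wild-type hosts and 6.33 ± 0.12 in Tm1G3 tumours of knockout hosts (SD, n = 3 each). In that order the middle gap, 0.74, had no overlap of arrays. The gaps between hosts of a line, 0.26 and 0.16, were no larger than the larger SD of the groups, and their arrays overlapped. Tm1N3 exceeded Tm1G3 by 1.00 ± 0.16 (SE) in wild-type hosts and by 0.90 ± 0.16 in knockout hosts, and by 0.95 ± 0.11 averaged over them, a 1.93-fold difference. By size this was number 7 among all 1246 probe sets. With any 1 array left out it ran from 0.87 to 1.00.

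Host genotype went with a smaller difference in Il3ra that did not pass. Knockout minus wild-type was -0.21 averaged over lines, with a 95% interval from -0.45 to 0.04 (limma, Benjamini-Hochberg adjusted p = 0.750 over 1246 probe sets). Within lines, the knockout minus wild-type difference was -0.26 ± 0.16 (SE) in Tm1N3 and -0.16 ± 0.16 in Tm1G3 tumours (limma, adjusted p = 1.000 and 0.896). With 1 array left out they ran from -0.42 (without replicate 2 of Tm1N3 in knockout hosts) to -0.14 (without replicate 1 of Tm1N3 in wild-type hosts) and from -0.26 to -0.045 (without replicates 2 and 1, respectively, of Tm1G3 in wild-type hosts). The interaction, the line difference in knockout minus that in wild-type hosts, was -0.10 ± 0.22 (limma, adjusted p = 0.996). It ran from -0.26 without that same knockout-host array to 0.019, with its direction turned, without that same Tm1N3 array of wild-type hosts. The 95% interval of that interaction ran from -0.59 to 0.39.

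**Figure D1:**
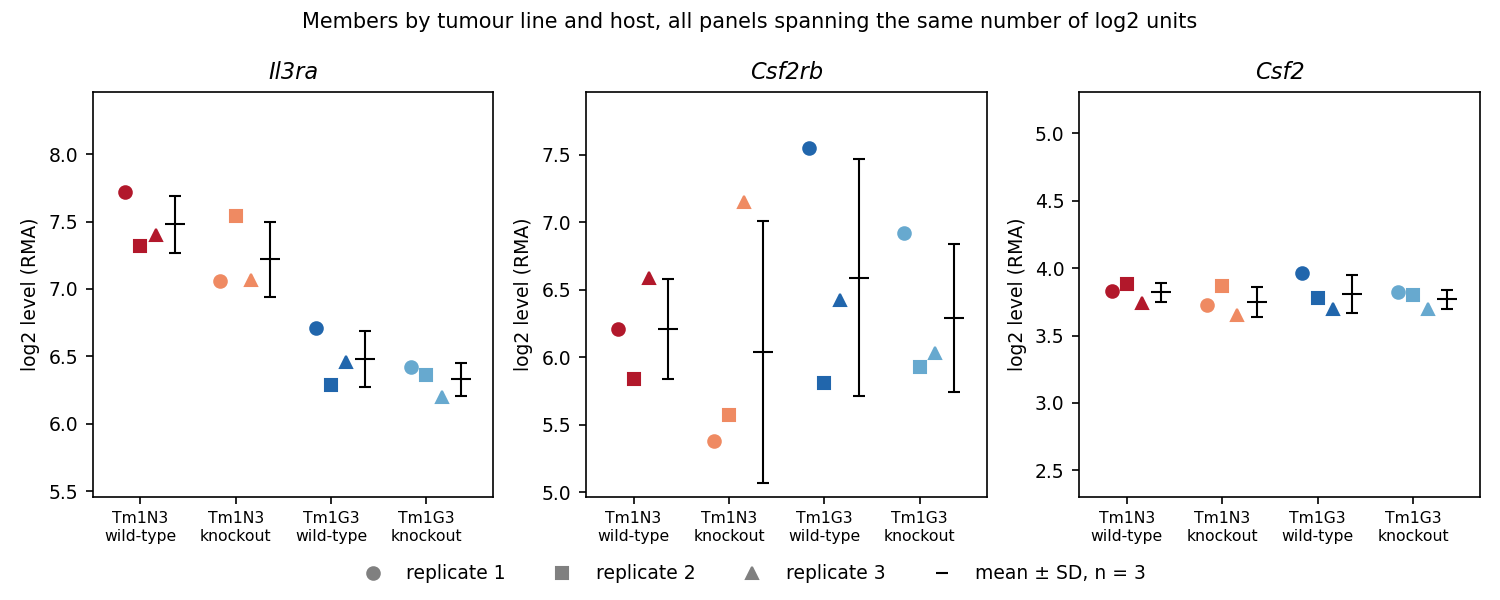
Log2 levels of Il3ra, Csf2rb and Csf2 (vertical axes, RMA) in each array by tumour line and host (horizontal axis); marker shapes are replicates and black bars are mean ± SD (n = 3). Il3ra of the 6 Tm1N3 arrays lies between 7.06 and 7.72, above the 6 Tm1G3 arrays at 6.20 to 6.71, while Csf2rb overlaps between all groups and Csf2 stays between 3.65 and 3.96.

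Csf2rb varied widely inside every group and showed no such division. Its log2 levels were 6.21, 5.84 and 6.59 in the wild-type hosts of Tm1N3 tumours and 5.38, 5.57 and 7.15 in the knockout hosts. They were 7.55, 5.81 and 6.42 in Tm1G3 tumours of wild-type hosts and 6.92, 5.93 and 6.03 in those of knockout hosts. The highest arrays, replicate 1 of Tm1G3 in wild-type hosts and replicate 3 of Tm1N3 in knockout hosts, belonged to opposite lines and hosts, and all groups overlapped.

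In order, the Csf2rb means were 6.59 ± 0.88 for Tm1G3 in wild-type hosts, 6.29 ± 0.55 for Tm1G3 in knockout hosts, 6.21 ± 0.37 for Tm1N3 in wild-type hosts and 6.04 ± 0.97 for Tm1N3 in knockout hosts (SD, n = 3 each). No neighbours differed beyond their spread. Tm1N3 minus Tm1G3 was -0.32 ± 0.37 (SE) averaged over hosts. It ran from -0.60 without replicate 3 of Tm1N3 in knockout hosts to -0.078 without replicate 1 of Tm1G3 in wild-type hosts. The host difference, knockout minus wild-type, was -0.24 with a 95% interval from -1.07 to 0.59 (limma, adjusted p = 0.909), and it was -0.0015 without that same Tm1G3 array and -0.52 without that same Tm1N3 array. Its interaction was 0.12 ± 0.75 (SE; limma, adjusted p = 0.996), and with 1 array left out it had either sign, from -0.43 without replicate 3 of Tm1N3 in knockout hosts to 0.51 without replicate 2 of Tm1G3 in wild-type hosts. Within lines the 95% intervals of the host difference were wide, -1.35 to 0.99 in Tm1N3 and -1.47 to 0.87 in Tm1G3 tumours.

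Csf2, the ligand, was dim and nearly level. Tm1N3 arrays of wild-type hosts gave 3.83, 3.88 and 3.74 and those of knockout hosts 3.73, 3.87 and 3.65. Tm1G3 arrays gave 3.96, 3.78 and 3.70 in wild-type and 3.82, 3.80 and 3.70 in knockout hosts. Every group overlapped every other, and all values lay between percentiles 15.5 and 18.8 of their array, below 4.22, the mean level that bounds the dimmest 25% of probe sets. Whether Csf2 was above background could not be examined from these values. Its group means, from 3.82 ± 0.07 for Tm1N3 in wild-type hosts through 3.81 ± 0.14 and 3.77 ± 0.07 for Tm1G3 in wild-type and knockout hosts to 3.75 ± 0.11 for Tm1N3 in knockout hosts (SD, n = 3 each), had gaps of 0.04 or less. Tm1N3 minus Tm1G3 was -0.01 ± 0.06 (SE), and the host difference was -0.05, with a 95% interval from -0.18 to 0.08 (limma, adjusted p = 0.852). The interaction was -0.02 ± 0.12 (SE; limma, adjusted p = 0.996). With 1 array left out the line difference ran from -0.038 to 0.029 and the interaction from -0.096 to 0.036, so neither had a settled direction.

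The rest of the beta common family, the genes of interleukin-3, interleukin-5 and GM-CSF with their receptors, was measured in full, with 5 further genes. None of the 5 passed the line comparison averaged over hosts in limma at an adjusted p of 0.05, and 0 had an unadjusted p under 0.05. Over the whole array 4.25% of probe sets passed it, 1.28% with higher and 2.97% with lower levels in Tm1N3, a split of 16 to 37 probe sets that became 29 to 28 after quantile normalizing again. Csf2ra, the GM-CSF receptor alpha chain, differed by 0.25 ± 0.17 (SE; limma, adjusted p = 0.551), with levels from 5.68 to 6.43 in Tm1N3 and from 5.46 to 6.18 in Tm1G3 tumours. Csf2rb2 differed by -0.07 ± 0.20 (limma, adjusted p = 0.937). Il5ra, the interleukin-5 receptor alpha chain of eosinophils, ran from 3.04 to 3.22 over all arrays and differed by 0.08 ± 0.04 (limma, adjusted p = 0.349). The ligand genes Il3, at 3.03 to 3.46, and Il5, at 3.91 to 4.31, were dim like Csf2 and differed by -0.02 ± 0.07 and 0.13 ± 0.06 (limma, adjusted p = 0.943 and 0.337).

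The median line difference of these 5 genes was 0.08, against 0.00 over all probe sets. In the host comparison none of the 5 passed either (smallest adjusted p = 0.852, limma). There 0 of 1246 probe sets passed, 0% of the array, and 78 had an unadjusted p under 0.05. The smallest host adjusted p on the array was 0.226 (limma). With arrays of 1 number within a line as a random replicate block it was 0.0593, and again 0 passed. Within lines that block gave a smallest adjusted p of 0.206 in Tm1N3 and 0.272 in Tm1G3 tumours (limma). Without the block these were 0.963 and 0.531. The host p-values printed for single genes are from the fit without it, although same-numbered arrays of a line deviated together between hosts. A probe set's brightness depends on its probes, so levels of different genes are not ranked against each other.

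**Figure D2:**
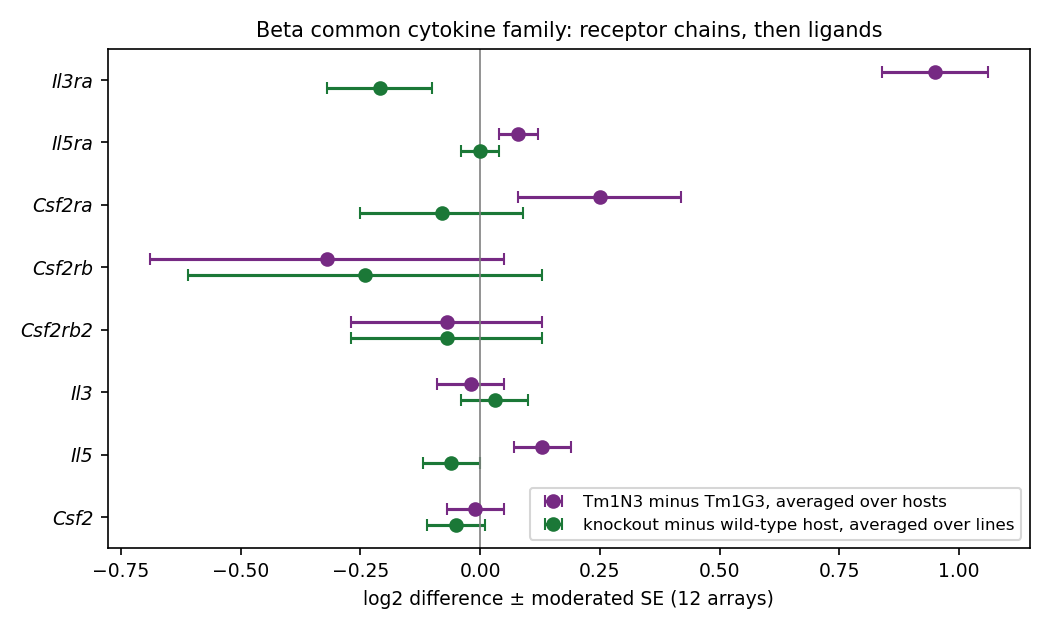
Log2 differences (horizontal axis, with moderated SE from 12 arrays) for the 8 genes of the beta common family (vertical axis), between tumour lines in purple and between hosts in green. Il3ra, chosen for its line difference, stands at 0.95 between lines, and the line differences of the other 7 genes lie between -0.32 and 0.25.

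Csf2rb and Csf2rb2 varied together from array to array, as did Csf2rb and Csf2ra within each line, while Il3ra had high correlations with them in Tm1G3 tumours and low ones in Tm1N3 tumours. Over 12 arrays Csf2rb and Csf2rb2 correlated with r = 0.906 (permutation p = 0.00014, adjusted 0.0049 over 35 relations within the family) and rho = 0.937 (permutation p = 4e-05, adjusted 0.0014). Without the 2 arrays farthest from the Csf2rb median r was 0.932, and within lines it was 0.972 in Tm1N3 and 0.875 in Tm1G3. These permutations treat the arrays as independent, although same-numbered arrays of a line deviated together between hosts, so the p-values of this family may be too small. The 2 genes are neighbours on chromosome 15 with no other protein-coding gene between them, and as they are close copies, shared hybridization cannot be told apart from shared expression.

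Csf2rb and Csf2ra, which lie on different chromosomes, had r = 0.746 over all arrays (permutation p = 0.0067, adjusted 0.0688) and rho = 0.713 (permutation p = 0.0113, adjusted 0.0658), which did not pass, and r fell to 0.566 without the 2 farthest arrays. Within a line r was 0.957 for Tm1N3 and 0.986 for Tm1G3, on 6 arrays each. Between lines, the 2 genes differed by -0.32 and 0.25, in opposite directions.

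Il3ra formed separate clusters by line, so its relations were taken within lines. With Csf2rb it had r = -0.132 in the 6 Tm1N3 arrays (exact permutation p = 0.814, adjusted 0.872) and rho = 0.143 (exact permutation p = 0.803, adjusted 0.900). In the 6 Tm1G3 arrays r was 0.886 (exact permutation p = 0.0361, adjusted 0.140) and rho 0.771 (exact permutation p = 0.103, adjusted 0.360). Neither passed after adjustment, the Tm1G3 value became 0.650 and the Tm1N3 value 0.0028 without the 2 farthest arrays, and the difference between the lines was not tested. Of the 35 relations, 2 passed by r and 1 by rho; the other by r was Il3 with Csf2ra (r = -0.753, permutation p = 0.00262, adjusted 0.0458; rho = -0.727, permutation p = 0.00986, adjusted 0.0658), where Il3 spanned only 0.42 over all arrays and the adjusted p by r lies close to the threshold under that same treatment of arrays as independent.

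Several cell type lists varied with Csf2rb from array to array, with the highest r for macrophage and monocyte genes. Of 15 genes listed for these cells 8 were measured, Adgre1, Csf1r, Mrc1, Siglec1, Ccr2, Clec4d, Clec4e and Clec10a. Their mean log2 level per array ran from 6.15 to 7.09 in Tm1N3 and from 6.23 to 7.44 in Tm1G3 tumours of wild-type hosts, and from 5.72 to 7.36 in Tm1N3 and from 6.47 to 6.85 in Tm1G3 tumours of knockout hosts. The highest arrays were the 2 in which Csf2rb was highest. Across arrays this mean followed Csf2rb with r = 0.947 (0.964 within Tm1N3 and 0.970 within Tm1G3), Csf2rb2 with 0.941 and Csf2ra with 0.627 (0.851 and 0.933 within lines), as a description over 12 arrays that share RNA and normalization. With Il3ra it had r = -0.212 within Tm1N3 and 0.920 within Tm1G3 tumours. The mean of 4 neutrophil genes had nearly the same relations with Il3ra, -0.0378 within Tm1N3 and 0.897 within Tm1G3, and followed Csf2rb with r = 0.785 over 12 arrays (0.834 and 0.850 within lines). In Tm1G3 tumours that neutrophil mean was 4.80, 4.92 and 5.86 in wild-type hosts, from lowest to highest, and 4.80 to 4.89 in knockout hosts. Its r values within Tm1G3 therefore lean on the array at 5.86. The mean of 5 fibroblast genes followed Csf2rb with 0.770 (0.934 and 0.748 within lines) and Csf2rb2 with 0.920, and that of 5 endothelial genes followed them with 0.725 and 0.718. Other lists followed Csf2rb less over 12 arrays. The mean of 7 dendritic cell genes, which share Clec10a with the macrophage and monocyte list, had r = 0.349, with 0.962 within Tm1N3 and -0.248 within Tm1G3. With Csf2rb2 it had 0.998 within Tm1N3 and 0.222 within Tm1G3. T and NK cell genes had 0.402 with Csf2rb and eosinophil genes -0.0506. The pattern is thus shared by some lists of other cell types and not by all, and the differences between these correlations were not tested. None of the 8 passed between lines or hosts in limma, and 0 had an unadjusted p under 0.05 in either; 7 were negative in Tm1N3 minus Tm1G3 (median -0.31) and 8 in knockout minus wild-type (median -0.17). The part of any of these cells in the receptor levels was not tested.

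**Figure D3:**
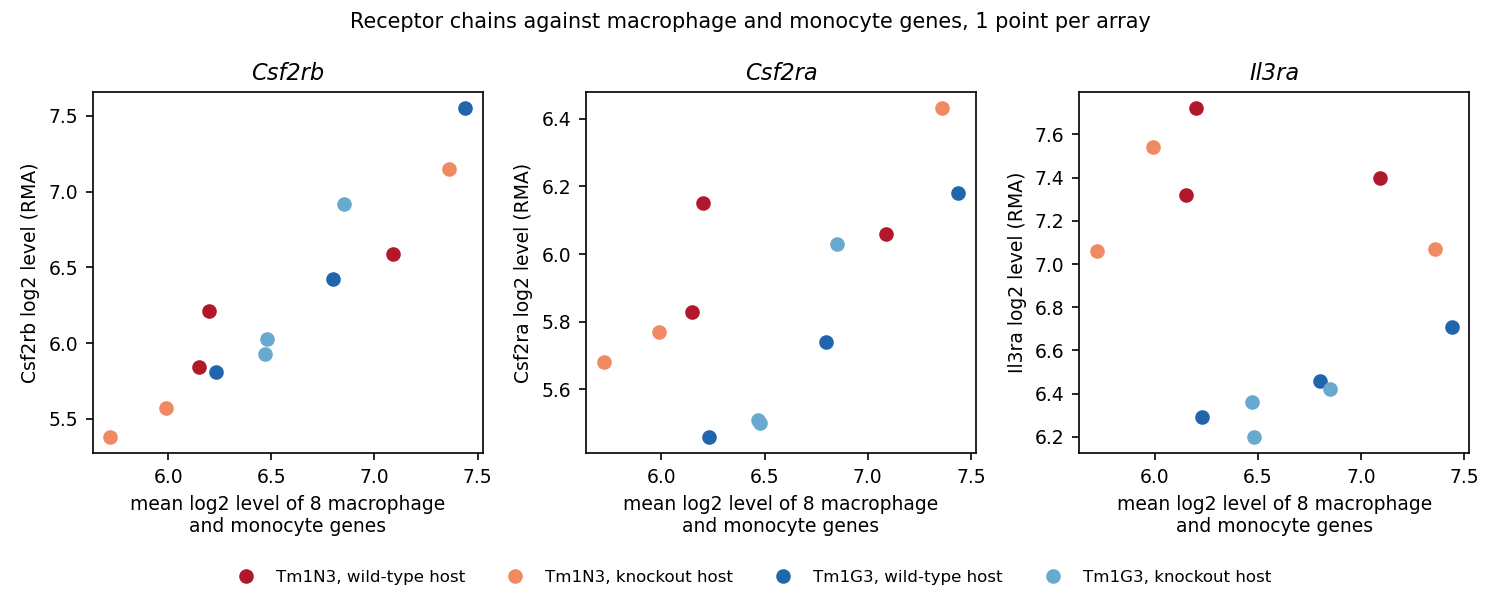
Log2 levels of Csf2rb, Csf2ra and Il3ra (vertical axes) against the mean log2 level of 8 macrophage and monocyte genes (horizontal axes), 1 point per array, coloured by line and host. Csf2rb follows that mean with r = 0.947 over 12 arrays, whereas the Il3ra points of the lines form 2 bands, Tm1N3 at 7.06 to 7.72 and Tm1G3 at 6.20 to 6.71.

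Markers of plasmacytoid dendritic cells, eosinophils, mast cells and basophils were few on the array. Siglech, of plasmacytoid dendritic cells, was dim, from 3.56 to 3.96 over all arrays, and differed by 0.05 ± 0.08 (SE) between lines (limma, adjusted p = 0.878). The 4 eosinophil genes Siglecf, Ccr3, Il5ra and Prg2 had a mean level from 3.59 to 3.70 and none passed. Of 12 mast cell and basophil genes only Kit and Il1rl1 were measured; Kit, which melanocytes express too, fell by 0.99 in Tm1N3 tumours (limma, adjusted p = 0.00379), and Il1rl1 differed by 0.19 ± 0.41 (limma, adjusted p = 0.897). The levels of those cells in the tumours and their part in the Il3ra difference were not tested.

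Other growth factor and cytokine receptor genes are described here beside Il3ra, which was chosen for its line difference. Among 7 genes of further blood cell growth factors and their receptors, Kit fell in Tm1N3 tumours and 6 did not pass. The Kit difference was -0.44 ± 0.21 (SE) in wild-type and -1.55 ± 0.21 in knockout hosts (limma, adjusted p = 0.428 and 0.00635), an interaction that did not pass (limma, adjusted p = 0.996). The 6 that did not pass were Csf1 (-0.29 ± 0.15, SE), Csf1r (-0.37 ± 0.38), Csf3 (-0.22 ± 0.21), Csf3r (-0.20 ± 0.24), Flt3 (0.00 ± 0.05) and Flt3l (-0.13 ± 0.06). The median of the 7 was -0.22, and over the whole array 4.25% of probe sets passed between lines. A further list held 18 other genes for chains of type I cytokine receptors. Of these, Il12rb1 of the interleukin-12 receptor fell by 0.64 (limma, adjusted p = 0.0206, or 0.0709 with a random replicate block) and 17 did not pass, with a median of -0.02. Of 24 genes for such chains in all, Il3ra had the highest Tm1N3 minus Tm1G3 difference and Csf2ra the next, at 0.25. Nothing is read from the place of Il3ra, since it was chosen for this difference.

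**Figure D4:**
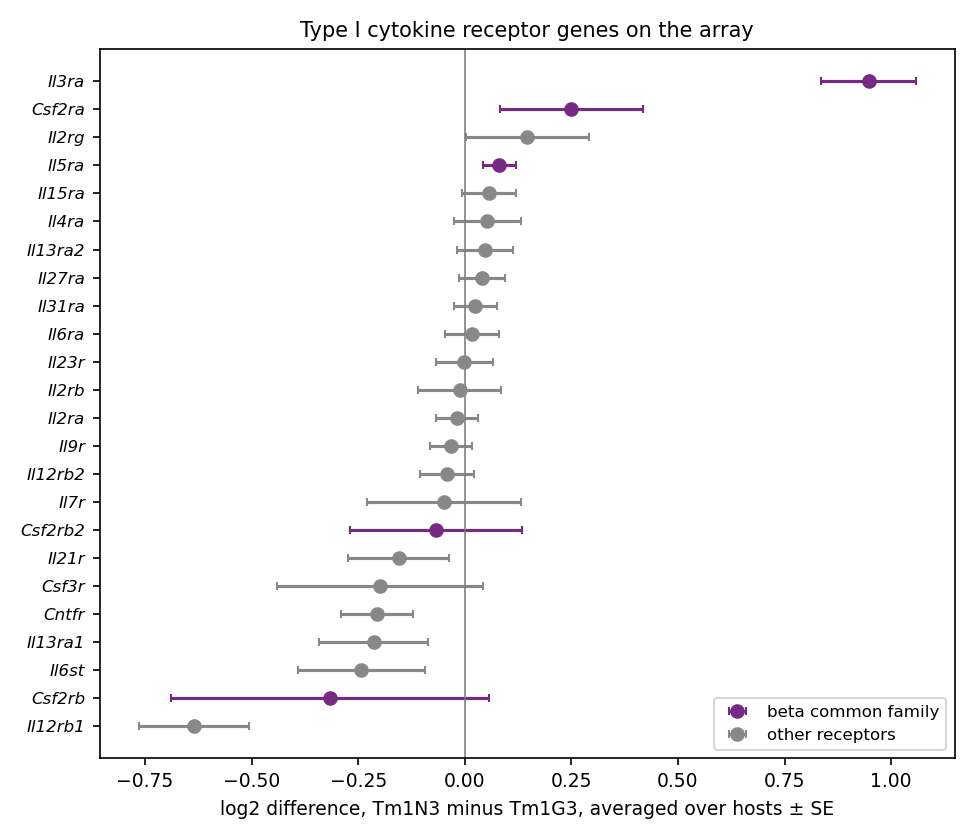
Log2 difference, Tm1N3 minus Tm1G3, averaged over hosts (horizontal axis, with SE) for 24 genes for chains of type I cytokine receptors (vertical axis), those of the beta common family in purple. Il3ra, chosen for this difference, is at 0.95, Il12rb1 at -0.64, and the other 22 lie between -0.32 and 0.25.

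Cytokines of type 2 immunity and of mast cells, 13 of 17 measured, gave 0 calls between lines in limma and 0 unadjusted p under 0.05 (median -0.02). The same held for lists of dendritic cells (7 genes), neutrophils (4) and B cells (2). In other lists Icam2 of 5 endothelial genes fell by 0.40, Ccl5 of 6 T and NK cell genes fell by 0.65 and Fbln5 of 5 fibroblast genes rose by 0.76. Mcam rose by 0.66 beside the fall of Kit in the melanocyte list. Of the 10 genes of that list only these 2 were measured, and they went in opposite directions. The calls had adjusted p from 0.00379 to 0.0336 (limma), and over the whole array 4.25% of probe sets passed this comparison. With arrays of 1 number within a line as a random replicate block Icam2 and Mcam did not pass (adjusted p = 0.0545 and 0.0674). When single arrays were dropped in turn, 9 of 12 such fits ended the Mcam call (adjusted p from 0.0132 to 0.0913). The Icam2 call ended without WT_Tm1G3 replicate 3, WT_Tm1N3 replicate 2 or WT_Tm1N3 replicate 3 (adjusted p = 0.0558, 0.0522 and 0.0515), and the Il12rb1 call without KO_Tm1G3 replicate 2 or WT_Tm1N3 replicate 2 (adjusted p = 0.0533 and 0.0522). No gene of the JAK and STAT list was measured, so signalling below the receptors was not analysed here.

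Genes with levels most like Il3ra over the 12 arrays were Idua, a lysosomal enzyme gene (Pearson r = 0.948), Hs3st1, a heparan sulfate sulfotransferase gene (0.945), Fut11 (0.911), Podxl2 (0.903) and Galc (0.891). All 5 were also higher in Tm1N3 tumours, by 0.43 to 1.89, and r over arrays of both lines holds that shared division. Within lines, r with Idua was 0.855 for Tm1N3 and 0.833 for Tm1G3, and r with Galc 0.387 and 0.288. After group means were removed the most alike were Gdf1 (0.940), Rfng (0.914), Chpf (0.909), Gaa (0.900) and B3gat3 (0.896), none of them among the former 5.

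For Csf2rb the most alike in level were Srgn, the proteoglycan serglycin of blood cell granules (0.961), the monocyte chemokine receptor gene Ccr2 (0.955), Ggta1 (0.951), Clec4a3 (0.940) and Adgre1, which encodes the macrophage antigen F4/80 (0.934). With group means removed they were Thbd (0.976), Csf2ra (0.972), Ggta1 (0.961), Srgn (0.960) and Ccr2 (0.955). For Csf2 they were Slc35e3 (0.818), Man2a2 (0.787), Atrn (0.784), Notch2 (0.783) and Clec1b (0.776), over a Csf2 range of only 0.31. With group means removed they were Fryl (0.947), Dgcr2 (0.942), Ifnar1 (0.941), B4galt4 (0.932) and Slc35e3 (0.924). Each list holds the highest of 908 correlations on 12 arrays and is a description.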

How the data were processed

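Total RNA of 12 tumour samples was hybridised to an Affymetrix array. The deposited values are log2 levels per probe set, made by the authors with RMA (background correction, quantile normalization and probe summary), per the submitters' processing notes; version, build and annotation are not given in the sources used here. They were used as deposited, from 2.14 to 13.91. No scanner files were used, so nothing is known of signal over background, and the number of arrays limits the precision.

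Probe sets were named by RefSeq accession through a GRCm38.p6 gene table: 963 of 1246 matched 1 symbol. Promoters came from RefSeq. With limma 3.58.1 (lmFit, eBayes; R 4.3.3), 1 mean per group was estimated from all 12 arrays together (8 residual and 2.39 prior degrees of freedom), with Benjamini-Hochberg adjustment over 1246 probe sets and a threshold of 0.05. Intervals are 95% and SE are moderated. Correlations used two-sided permutation (SciPy 1.17.1), exact for 6 arrays and otherwise by 100000 resamples. The fit was tested on simulated data.

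Members and lists were chosen with earlier results of these data known. Genes named are the members, Lgals3, all measured genes of the beta common family and blood cell growth factor lists, up to 4 of other lists by size of line difference or with a call, and the 5 genes most like each member by either measure. Groups have replicate numbers in common. After removing group means, arrays with 1 number correlated over probe sets by 0.184 to 0.752 (Tm1N3) and 0.249 to 0.308 (Tm1G3) between hosts, which by the rule of every pair over 0.1 pairs the hosts within a line, and by -0.660 to 0.544 between lines, which does not. Alternatives were renormalization, median centring, a filter on dim probe sets, other moderation, replicate blocks, fits to 6 arrays and leaving out each array.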

Additional observations from a re-analysis of the deposited data

How the results depend on the processing

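The Il3ra line difference kept its direction under each alternative, from 0.95 to 0.98 averaged over hosts with all arrays. Nothing is read from this, since Il3ra was chosen for that difference and its arrays did not overlap between lines. The host differences of Il3ra, Csf2rb and Csf2 passed under none. Csf2 was removed by the filter on dim probe sets, and the mean of all probe sets equals the brightest, since each member has 1. Counts of called probe sets varied between fits. The averaged line comparison gave 53, with 32 to 63 when 1 array was left out (32 without replicate 2 of Tm1G3 in knockout hosts). It gave 40 with a random replicate block within lines. A fixed block gave 50, but it joins equal replicate numbers of both lines, a pairing that the correlations between lines did not bear out. Quantile normalizing again gave 29 higher and 28 lower in place of 16 and 37. In wild-type hosts the count of 11 became 6 with arrays centred on their medians, 3 in a fit to the 6 arrays compared and 2 to 21 with 1 array left out. In knockout hosts 9 became 4 in the 6-array fit and 5 to 13 with 1 array left out. The fits to 6 arrays hold fewer samples, and for the rest the cause was not tested. With the replicate block no call of a host difference or interaction changed, and of the 6 other genes called between lines above, Mcam, Icam2 and Il12rb1 no longer passed with the random block, and Mcam not with the fixed one either (adjusted p = 0.0572). Direction of the Csf2rb host difference turned within Tm1N3 tumours without replicate 1 (0.15) or 2 (0.052) of Tm1N3 in knockout hosts or replicate 3 in wild-type hosts (0.0092), and within Tm1G3 tumours (0.18) without replicate 1 of Tm1G3 in wild-type hosts. The Csf2 host difference within Tm1G3 tumours, -0.0425, turned too. It was 0.0313 without that same Tm1G3 array and 0.0081 after quantile normalizing again.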
